A study of Mus musculus with 26 samples.

Results

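The MHC class I presentation genes B2m, Nlrc5, Tap1, Tap2, Tapbp, Psmb8, Psmb9 and Psmb10 are a set of 8 genes, taken by name from the 16397 genes used of the deposited expression table. They were chosen by measured values of these data, among them the log2 differences between lesional and normal epithelium, so those differences are given as values without a test. RNA was sequenced from tongues of CBA mice, all male and of an inbred strain, in the 4-NQO model, in which a DNA-damaging compound induces oral lesions. Tissue was fixed, embedded in paraffin, sectioned and cut by laser into epithelium and into the stroma and muscle beneath it, after a pathologist's map. The 26 libraries were labelled by compartment and histology: normal mucosa (3 libraries per compartment, from mice of 16 to 24 weeks), hyperplasia (3, 20 to 32 weeks), dysplasia (4, 16 to 32 weeks) and tumor (3, 28 to 32 weeks). Ages of normal and tumor libraries did not overlap, and whether the donors of normal mucosa had received 4-NQO is not stated in the labels, so lesion, age and treatment cannot be told apart there. No genotype or engineered allele is labelled. Replicates are called biological in the labels, which tie no library to an animal, so p-values measure the spread between libraries. They may be too small where libraries of a group share an animal. Where an animal gave libraries to both sides of a comparison, they may be too large.

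MHC class I molecules carry peptides from inside the cell to its surface, where CD8+ T cells read them. The proteasome cuts proteins into peptides, the transporter formed by TAP1 and TAP2 brings the peptides into the endoplasmic reticulum, tapasin (Tapbp) holds the transporter beside an empty class I molecule, and beta-2 microglobulin (B2m) is the light chain that every classical class I molecule needs. Interferon raises most of these genes: Psmb8, Psmb9 and Psmb10 encode the catalytic subunits of the immunoproteasome, which take the places of Psmb5, Psmb6 and Psmb7 in the constitutive proteasome, and Nlrc5 encodes a transactivator that acts on class I promoters.

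In the GRCm38 annotation B2m lies at chr2:122147686-122153083 (plus strand), Nlrc5 at chr8:94434356-94527272 (plus) and Psmb10 at chr8:105935735-105938444 (minus). The other 5 genes lie on chromosome 17, where Psmb9 (chr17:34181987-34187764, minus), Tap1 (chr17:34187553-34197225, plus), Psmb8 (chr17:34197721-34201454, plus) and Tap2 (chr17:34203527-34216321, plus) are neighbours and Tapbp (chr17:33915899-33929292, plus) stands apart from them. Each of the 8 overlaps an annotated gene on the opposite strand, Psmb9 and Tap1 overlap each other by 212 bases. Tapbp overlaps the protein-coding Zbtb22 on its own strand by 3422 bases. No source used here says whether reads were counted by strand, so a share of the reads could belong to the partner. RefSeq promoter windows of GRCm38.p6, from 250 bases before to 50 bases after a start site, were matched by symbol for 6 of the 8 genes, all but Nlrc5 and Tap2. The windows of B2m (chr2:122147437-122147736, plus), of Tap1 (chr17:34187306-34187605, plus) and of Psmb8 (chr17:34197945-34198244, plus) are printed because B2m differed most from normal epithelium of the 8 genes, Tap1 shares its window with Psmb9, and Psmb8 is the subunit whose balance with its counterpart differed most between compartments. Capitals mark matches, on either strand, to a pair of GAAA copies with any 2 bases between them (the core of an interferon-stimulated response element), TTCNNNGAA (a gamma-activated sequence), CCAAT (a common promoter box, which reads ATTGG on the other strand) and TGACG (part of the cyclic AMP response element, CGTCA on the other strand).
B2m promoter: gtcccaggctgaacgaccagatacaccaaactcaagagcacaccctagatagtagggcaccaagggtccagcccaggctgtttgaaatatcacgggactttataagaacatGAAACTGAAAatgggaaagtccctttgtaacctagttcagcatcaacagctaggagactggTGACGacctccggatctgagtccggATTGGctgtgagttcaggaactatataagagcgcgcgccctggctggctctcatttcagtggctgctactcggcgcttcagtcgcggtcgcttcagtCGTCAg
Tap1 promoter: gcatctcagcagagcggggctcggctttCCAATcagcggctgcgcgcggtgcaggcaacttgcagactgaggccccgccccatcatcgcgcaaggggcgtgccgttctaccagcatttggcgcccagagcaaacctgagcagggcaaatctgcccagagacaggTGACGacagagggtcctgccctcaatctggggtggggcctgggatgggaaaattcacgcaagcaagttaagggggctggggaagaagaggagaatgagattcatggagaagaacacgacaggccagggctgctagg
Psmb8 promoter: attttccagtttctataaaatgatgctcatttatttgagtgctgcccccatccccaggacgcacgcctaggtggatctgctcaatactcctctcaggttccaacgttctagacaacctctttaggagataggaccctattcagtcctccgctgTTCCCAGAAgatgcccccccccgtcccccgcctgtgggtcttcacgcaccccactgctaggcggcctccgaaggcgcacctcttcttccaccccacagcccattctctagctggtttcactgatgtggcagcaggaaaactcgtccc
The B2m window held GAAACTGAAA at position -139 from the start site, the single match to that core among the 6 windows, against 3.44% of the 32851 promoters in the table. The Psmb8 window held TTCCCAGAA at position -97, the single match to TTCNNNGAA among the 6, against 8.30% of all promoters. That window lies wholly inside the annotated Psmb8 gene, as those of Tapbp (chr17:33919228-33919527) and Psmb9 (chr17:34187281-34187580) lie inside theirs. The start sites used for these genes are thus downstream of the annotated gene starts, and the sequence before those gene starts was not searched. CCAAT was present in 4 of the 6 windows (B2m, Tap1, Tapbp and Psmb9) and in 37.4% of all, and TGACG in 3 (B2m, Tap1 and Psmb9) and in 20.8% of all. None of the 4 motifs was found in the window of Psmb10. The windows of Tap1 and Psmb9 share 275 bases (chr17:34187306-34187580) on opposite strands, so their CCAAT and TGACG matches are the same bases counted for both genes, with start sites 226 bases apart. No motif overlapped another.

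Values are log2(TPM + 1), where TPM is a relative abundance scaled for gene length that keeps no record of sequencing depth. The depth behind each value is therefore unknown, and differences on this scale are too small for genes with low TPM. All 8 genes passed the filter on low values (1 TPM or more in 3 or more libraries) in every fit. Keratinocyte markers (7 of 8 measured) summed to at least 6920 TPM in each epithelium library, against at most 6020 TPM in each stroma library. The 6 fibroblast markers summed to at most 523 TPM in epithelium, against at least 200 TPM in stroma. The keratinocyte sums of the compartments thus came close without overlap, and the fibroblast sums overlapped. Some stroma libraries held keratinocyte marker RNA near the lowest epithelium library. In 4 libraries Lars2, March6 and D17H6S53E held an unusual share of the TPM, namely hyperplasia stroma 1 (86.4%), dysplasia stroma 2 (54.3%), normal stroma 1 (48.0%) and dysplasia epithelium 2 (17.9%), against at most 11.7% in the other 22. Hyperplasia stroma 1 listed 9382 genes at 0, among them Tap1, Psmb8, Psmb9 and Psmb10, and dysplasia stroma 2 listed Psmb10 at 0. Comparisons that rest on these 4 libraries are given with and without them, while correlations are given over all libraries only.

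In epithelium all 8 genes had lower means in normal mucosa than at each lesional stage, with the largest differences in B2m and Nlrc5. Tapbp overlapped its normal range at every stage, and its means were close in normal epithelium (4.75) and tumor (4.98). B2m, the class I light chain, had 4.18, 4.24 and 4.16 in normal epithelium, 10.13, 7.81 and 9.78 in hyperplasia, 9.06, 7.45, 9.12 and 8.81 in dysplasia, and 7.42, 9.24 and 7.68 in tumor. On the linear scale these were medians of 17.1 TPM in normal epithelium, 881 TPM in hyperplasia, 492 TPM in dysplasia and 204 TPM in tumor. The normal libraries lay close together and every lesional library stood far above them, while the lesional stages overlapped one another. Nlrc5, the transactivator, had 1.38, 0.96 and 2.03 in normal epithelium, 6.26, 3.99 and 5.17 in hyperplasia, 4.69, 4.12, 5.94 and 4.48 in dysplasia, and 3.84, 5.59 and 4.74 in tumor. No lesional library of Nlrc5 reached down to the normal range, although the normal libraries were themselves spread. The differences from normal for B2m were 5.17 ± 0.69 in hyperplasia, 4.48 ± 0.63 in dysplasia and 4.04 ± 0.69 in tumor, and for Nlrc5 3.73 ± 0.61, 3.38 ± 0.56 and 3.31 ± 0.61 in the same order of stages (log2 difference ± SE from limma).

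The peptide transporter genes differed less from normal epithelium, by 2.59 ± 0.56 in hyperplasia, 2.10 ± 0.52 in dysplasia and 1.54 ± 0.56 in tumor for Tap1. Tap2 differed by 2.38 ± 0.52, 2.52 ± 0.48 and 1.88 ± 0.52, and its mean was highest in dysplasia. Tap1 had 1.69, 2.06 and 2.52 in normal epithelium, 5.21, 3.81 and 4.8 in hyperplasia, 4.60, 3.00, 4.44 and 4.58 in dysplasia, and 2.77, 4.77 and 3.13 in tumor. Tap2 had 1.80, 2.03 and 2.35 in normal epithelium, 5.16, 2.83 and 4.64 in hyperplasia, 4.42, 4.62, 4.29 and 4.52 in dysplasia, and 3.20, 4.90 and 3.01 in tumor. All lesional libraries lay above all normal libraries for both genes, but in tumor 2 of the 3 libraries stood closer to the normal range than to the highest library. Tapbp, which bridges transporter and class I molecule, had 4.41, 5.25 and 4.57 in normal epithelium, 6.33, 4.39 and 6.09 in hyperplasia, 5.11, 5.03, 5.82 and 5.03 in dysplasia, and 4.24, 5.77 and 4.92 in tumor. Its lesional and normal libraries overlapped at every stage, with differences of 1.00 ± 0.55, 0.57 ± 0.50 and 0.37 ± 0.55. The tumor difference of Tapbp was -0.03 without tumor epithelium 2, 0.15 without normal epithelium 1 and -0.01 with age as a covariate, so no direction is given for it.

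Of the immunoproteasome subunits, Psmb8 and Psmb9 had the lowest means of the 8 genes in normal epithelium (1.05 ± 0.36 and 1.10 ± 0.66, SD, n = 3), and Psmb10 did not (2.35 ± 0.28). Psmb8 had 0.72, 0.99 and 1.44 in normal epithelium, 5.18, 2.93 and 3.97 in hyperplasia, 4.38, 2.70, 4.73 and 4.48 in dysplasia, and 2.54, 4.51 and 2.41 in tumor. Psmb9 had 0.41, 1.17 and 1.72 in normal epithelium, 4.72, 2.81 and 3.89 in hyperplasia, 3.97, 2.79, 3.60 and 3.95 in dysplasia, and 2.00, 3.87 and 2.05 in tumor. Both genes had lesional libraries above every normal one, with the narrowest gap for Psmb9 in tumor. Psmb10 had 2.05, 2.60 and 2.40 in normal epithelium, 4.56, 2.98 and 3.84 in hyperplasia, 3.75, 4.29, 3.67 and 3.94 in dysplasia, and 2.56, 4.13 and 3.78 in tumor, where the lowest tumor library overlapped the normal range.

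**Figure D1:**
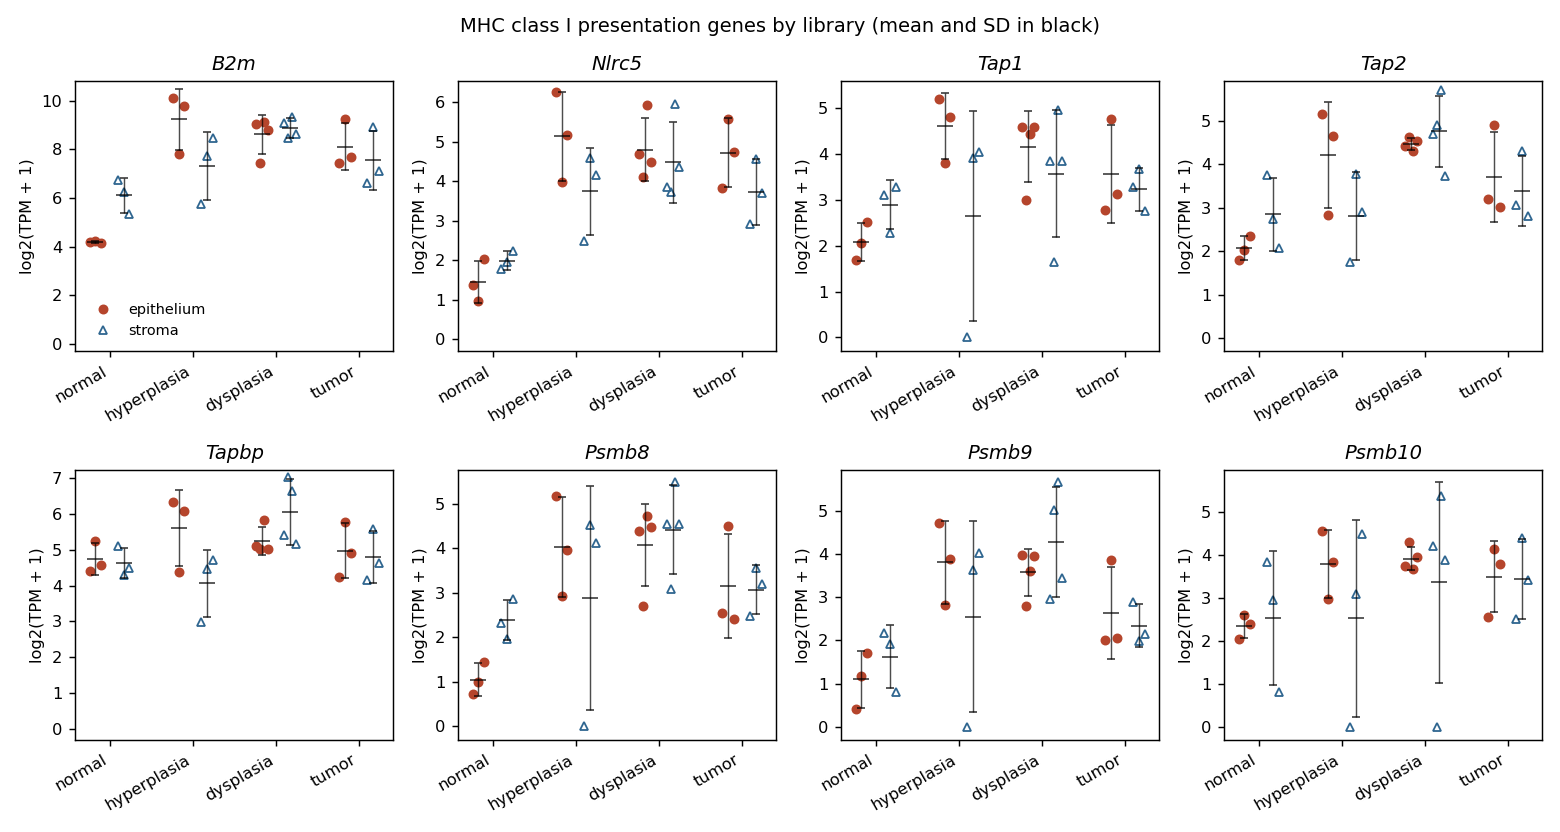
Level of each MHC class I presentation gene in log2(TPM + 1) on the vertical axis, by stage on the horizontal axis, with epithelium libraries as red circles and stroma libraries as blue triangles and the mean and SD in black (3 libraries per group, 4 in dysplasia). The normal epithelium libraries of B2m sit between 4.16 and 4.24, below every other library, and 4 genes are at 0 in 1 hyperplasia stroma library.

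Counted over the set, 7 of 8 genes had every hyperplasia library above every normal epithelium library, 7 of 8 every dysplasia library and 6 of 8 every tumor library, against 3.74%, 3.10% and 3.65% of all 14126 genes fitted in the same order. The exceptions were Tapbp at each stage and Psmb10 in tumor. The median difference from normal over the 8 genes was 2.71 in hyperplasia, 2.53 in dysplasia and 1.77 in tumor, against 0.09, 0.02 and 0.02 over all genes. Without dysplasia epithelium 2 these medians were 2.80, 2.79 and 1.82. Nothing is read from these counts and medians, since these contrasts were in view when the genes were chosen. Within sequencing run 1 the median over the 8 genes was 1.71 in hyperplasia, 2.04 in dysplasia and 0.76 in tumor, and within run 2 it was 3.63, 2.62 and 3.03, with all 8 differences above 0 in each of these 6 cases. Each group had 1 or 2 libraries in a run.

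Some markers of immune cells were also higher in lesional than in normal epithelium, and others were not. Ptprc, which marks leukocytes, had 3.58 to 10.6 TPM in normal epithelium, 9.82 to 19.2 TPM in hyperplasia, 13 to 21.0 TPM in dysplasia and 9.62 to 14.9 TPM in tumor. The 8 macrophage markers summed to 5.17 to 16.1 TPM in normal epithelium, 21.6 to 40.8 TPM in hyperplasia, 32.3 to 51.8 TPM in dysplasia and 29.3 to 68.4 TPM in tumor. The macrophage sums of normal and lesional libraries did not overlap, and those of the 6 dendritic and Langerhans cell markers did not in hyperplasia. The dendritic sums were 4.90 to 11.8 TPM in normal epithelium, 22.8 to 28.2 TPM in hyperplasia, 5.76 to 18.9 TPM in dysplasia and 11.3 to 14.8 TPM in tumor, while the T and NK cell sums (10 of 12 markers) were 9.34 to 29.9 TPM, 7.72 to 37.7 TPM, 11.9 to 15.7 TPM and 12.4 to 20.8 TPM in the same order of stages. The B cell sums (4 markers) were 1.37 to 7.91 TPM in normal epithelium and 0.892 to 10.7 TPM over the lesional libraries. The neutrophil sums (3 of 4 markers) were 7.22 to 31.4 TPM in normal epithelium and 8.83 to 34.6 TPM over the lesional libraries. The median differences from normal were -0.06, -0.15 and -0.06 over the T and NK cell markers fitted and 1.02, 1.40 and 1.44 over the macrophage markers. The macrophage medians of dysplasia and tumor were close, with a median of -0.02 in tumor against dysplasia epithelium. The median macrophage sum was 27.8 TPM in hyperplasia, 48.4 TPM in dysplasia and 32.4 TPM in tumor. No marker of these lists was at 0 in every library of an epithelium group. The part of these cells in the levels of the 8 genes was not tested, and in dissected tissue a change in the number of cells of a type and a change in RNA per cell cannot be told apart.

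Tumor was then compared with dysplasia in epithelium, a contrast whose tumor libraries also enter the difference from normal. None of the 8 genes passed the test (limma, Benjamini-Hochberg adjustment over all genes, threshold 0.05), and neither did any of the 14126 genes (0.0%), of which 322 had an unadjusted p under 0.05. All 8 differences were below 0, between -0.88 (Psmb9, 95% interval -1.94 to 0.19) and -0.06 (Nlrc5, -1.21 to 1.09), with a median of -0.50 against 0.01 over all genes. The median was -0.80 without dysplasia epithelium 2 and -0.30 without dysplasia epithelium 1, and leaving out 1 tumor library gave -1.12 (tumor epithelium 2) or -0.18 (tumor epithelium 1). Nlrc5 was higher in tumor without dysplasia epithelium 3 (0.44) or tumor epithelium 1 (0.36). Tumor and dysplasia libraries overlapped in 8 of 8 genes, where 2.79% of all genes had every tumor library above and 0.984% every tumor library below. The sign depended on the run. Within run 1 all 8 genes were lower in tumor, with a median of -1.40, and within run 2 all 8 were higher, with a median of 0.83 and a single tumor library. Single libraries set whether other genes passed: 13 did without normal epithelium 3, 8 without dysplasia epithelium 2 and 2 without tumor epithelium 1. Skeletal muscle markers (6 of 6) summed to 46.9 to 343 TPM in tumor epithelium, against 6.43 to 22.6 TPM in dysplasia epithelium, and fibroblast markers to 92.7 to 523 TPM, against 59.3 to 122 TPM. The part of that tissue in the lower tumor values was not tested.

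In stroma none of the 8 genes passed the test in any of the 4 comparisons between stages. Those comparisons asked whether the connective tissue under a lesion shows the pattern of the epithelium, and they were not used to choose the genes, though the values were known. B2m had 6.73, 6.24 and 5.33 in normal stroma, 5.75, 7.74 and 8.46 in hyperplasia, 9.09, 8.45, 9.33 and 8.61 in dysplasia, and 6.62, 8.92 and 7.11 in tumor. Nlrc5 had 1.78, 1.96 and 2.24 in normal stroma, 2.5, 4.59 and 4.15 in hyperplasia, 3.87, 3.72, 5.97 and 4.37 in dysplasia, and 2.91, 4.57 and 3.70 in tumor. Dysplasia stroma stood above normal stroma in every library of both genes, and hyperplasia and tumor overlapped normal stroma for B2m but not for Nlrc5.

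Among the proteasome subunits in stroma, Psmb8 had 2.32, 1.97 and 2.87 in normal mucosa, 0.00, 4.53 and 4.13 in hyperplasia, 4.55, 3.08, 5.49 and 4.55 in dysplasia, and 2.47, 3.56 and 3.19 in tumor. Psmb9 had 2.17, 1.91 and 0.80 in normal stroma, 0.00, 3.63 and 4.03 in hyperplasia, 2.97, 5.01, 5.67 and 3.45 in dysplasia, and 2.90, 1.98 and 2.16 in tumor. Psmb10 had 3.83, 2.95 and 0.80 in normal stroma, 0.00, 3.08 and 4.49 in hyperplasia, 4.21, 0.00, 5.37 and 3.87 in dysplasia, and 2.52, 4.39 and 3.41 in tumor. The zeros are those of hyperplasia stroma 1 and dysplasia stroma 2, and dysplasia was above normal in every library of Psmb8 and Psmb9. Tap1 averaged 3.58 ± 1.40 in dysplasia stroma (SD, n = 4), against 2.89 ± 0.53 in normal stroma (SD, n = 3), Tap2 averaged 4.76 ± 0.81 against 2.85 ± 0.84, and Tapbp averaged 6.06 ± 0.92 against 4.64 ± 0.42. The dysplasia libraries of Tapbp lay above all normal ones, and those of Tap1 and Tap2 overlapped them.

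The difference of dysplasia from normal stroma was 2.74 ± 0.96 for B2m (95% interval 0.83 to 4.65, adjusted p = 0.787 with limma), 2.44 ± 0.90 for Psmb9 (adjusted p = 0.869), 2.39 ± 0.88 for Nlrc5 (adjusted p = 0.869), 1.91 ± 0.88 for Tap2 and 1.86 ± 0.91 for Psmb8. Those 5 genes had an unadjusted p under 0.05, as did 493 of the 14883 genes fitted. Only 6 of 14883 genes (0.0403%) passed the adjusted threshold in that comparison. The other 3 genes differed by 1.44 ± 0.89 (Tapbp), 0.59 ± 0.96 (Psmb10) and 0.51 ± 0.91 (Tap1). In 5 of the 8 genes (B2m, Nlrc5, Tapbp, Psmb8 and Psmb9) every dysplasia library lay above every normal library, against 2.14% of all genes. Without the libraries that stand apart, which leaves 3 dysplasia and 2 normal libraries, it was 8 of 8, against 15.8% of all genes. The median over the 8 genes was 1.88 against -0.06 over all genes, and 2.5 against 0.29 without those libraries. Within run 1 the median was 2.39 with all 8 genes above 0, and within run 2 it was 1.6 with 6 above 0.

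For hyperplasia against normal stroma the result rested on hyperplasia stroma 1. With it, 4 of 8 differences were above 0, with a median of 0.06 against -0.72 over all genes, so that the 8 genes stood above a shift of all genes, and 1 of 14883 genes passed the test (0.00672%; 1029 had an unadjusted p under 0.05). All 8 differences were above 0 after quantile normalization (median 0.91 against 0.06 over all genes) and after centring each library on its median (1.15 against 0.38). Without the libraries that stand apart all 8 were above 0 as well, with a median of 1.87 against 0.32 over all genes. In that case 7 of the 8 genes (all but Tapbp) had both hyperplasia libraries above both normal libraries, against 24.0% of all genes, while with every library it was 1 of 8 (Nlrc5), against 1.10%. The median was 1.78 within run 1 and -1.65 within run 2, where hyperplasia stroma 1 is the single hyperplasia library. Leaving out 1 library at a time gave 1.38 without hyperplasia stroma 1, 0.36 without normal stroma 1, -0.43 without normal stroma 2, -0.48 without hyperplasia stroma 2 and -0.18 without hyperplasia stroma 3, so no direction is given.

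In tumor stroma the fitted differences of the 8 genes lay below dysplasia stroma and, for 7 of them, above normal stroma, with none past the test. Against normal stroma 7 of 8 differences were above 0 with a median of 0.38, the highest being Nlrc5 (1.54 ± 0.96), and 12 of 14883 genes passed the test (0.0806%; 277 had an unadjusted p under 0.05). That median was 0.62 within run 1 and 1.18 within run 2, and was -0.26 without tumor stroma 2 and -0.02 without normal stroma 2. Nlrc5 was the single gene of the 8 with every tumor library above every normal library, against 4.98% of all genes, and without the libraries that stand apart there were 4 (B2m, Nlrc5, Tap2 and Psmb9), against 9.92%. Against dysplasia stroma all 8 differences were below 0, with a median of -1.30 against 0.02 over all genes, and 21 of 14883 genes passed (0.141%; 416 had an unadjusted p under 0.05). Psmb9 was the lowest of the 8 at -2.14 ± 0.90 (95% interval -3.92 to -0.36, adjusted p = 1 with limma), and the only one with every tumor library below every dysplasia library, against 0.786% of all genes. Without the libraries that stand apart there were 3 (Tap1, Psmb8 and Psmb9), against 2.92%. The median was -1.83 within run 1, with 0 of 8 genes higher in tumor, and -0.05 within run 2, which held 1 tumor library and where 4 of 8 genes were higher in tumor.

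**Figure D2:**
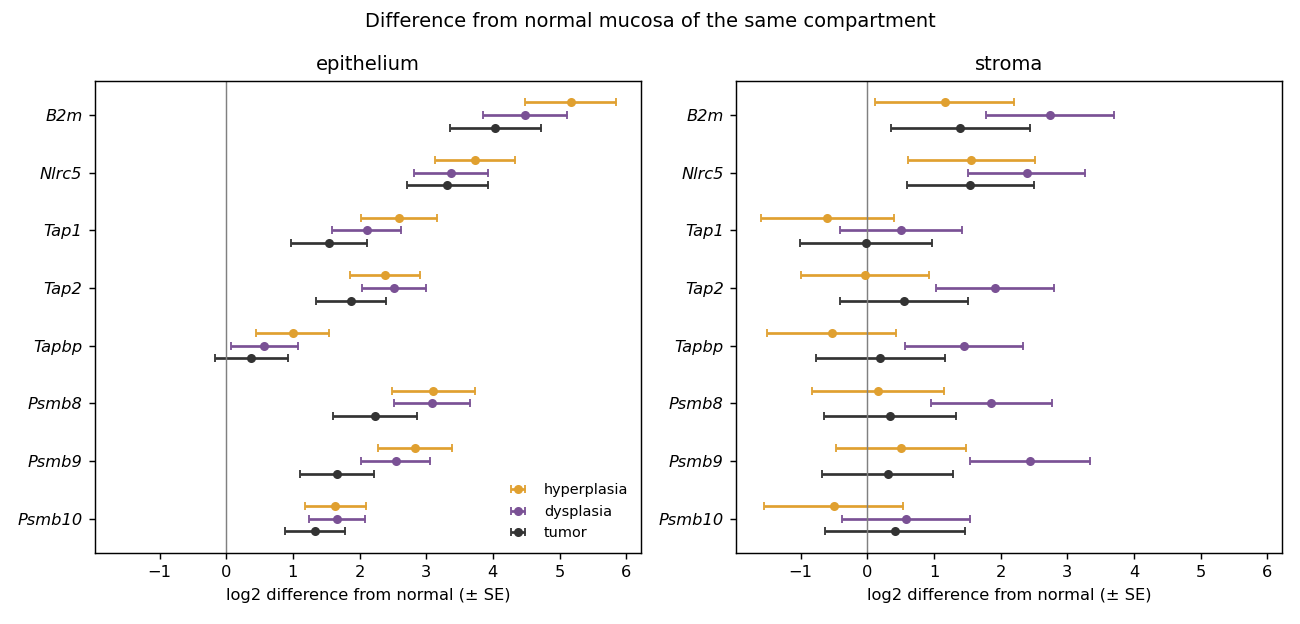
Log2 difference from normal mucosa of the same compartment on the horizontal axis for each of the 8 genes down the page, epithelium on the left and stroma on the right, with hyperplasia in yellow, dysplasia in purple and tumor in black and bars of 1 SE from limma. In epithelium the differences of B2m lie between 4.04 and 5.17 and those of Tapbp between 0.37 and 1.00, while in stroma B2m lies between 1.16 and 2.74.

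Leukocyte markers in stroma moved in part with the 8 genes. Ptprc had 10.7 to 14.9 TPM in normal stroma, 19.8 to 59.9 TPM in hyperplasia, 10.9 to 93.4 TPM in dysplasia and 18.6 to 60.3 TPM in tumor. The macrophage sums were 48.5 to 82.7 TPM in normal stroma, 35.9 to 116 TPM in hyperplasia, 29.0 to 409 TPM in dysplasia and 72.1 to 302 TPM in tumor. The dendritic sums were 9.08 to 12.4 TPM, 1.15 to 29.9 TPM, 13.8 to 53.4 TPM and 15.3 to 28.5 TPM in the same order, and the muscle sums 1140 to 5940 TPM, 76.1 to 703 TPM, 63.4 to 1080 TPM and 605 to 1920 TPM. The highest Ptprc, macrophage and dendritic values were thus those of dysplasia libraries, and every dysplasia library held less muscle marker RNA than every normal one. Among the T and NK cell markers Nkg7 and Ifng were at 0 in every normal stroma library, and the sums of the 10 measured were 11.6 to 12.6 TPM in normal stroma, 5.10 to 58.2 TPM in hyperplasia, 3.17 to 28.9 TPM in dysplasia and 24.9 to 29.9 TPM in tumor. Keratinocyte sums in stroma were 2580 to 4150 TPM in normal mucosa, 157 to 1320 TPM in hyperplasia, 275 to 6020 TPM in dysplasia and 744 to 5600 TPM in tumor. The part of these cells, keratinocytes among them, in the stromal levels was not tested.

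Epithelium and stroma were compared over all 26 libraries, averaged over the 4 stages. None of the 8 genes passed the test, against 23.9% of the 15499 genes fitted, of which 2255 (14.5%) were higher and 1451 (9.36%) lower in epithelium. The differences lay between -0.11 (Psmb8, 95% interval -0.95 to 0.73) and 0.55 (Nlrc5, -0.17 to 1.26), with a median of 0.21 against 0.16 over all genes, and B2m differed by 0.08 (-0.72 to 0.88). The sign of the median turned with the scaling. It was -0.10 after quantile normalization, where the median of all genes was -0.02, and -0.24 after rescaling every library to a common total without Lars2, March6 and D17H6S53E, where it was -0.13. Of all calls 60.8% were higher in epithelium as fitted, 52.3% after quantile normalization and 56.3% after centring each library on its median. That share was 40.5% after rescaling and 48.4% without the libraries that stand apart, so the split turned in these cases. The averages hide stages that differed. The normal epithelium libraries also entered the contrasts that chose the genes. In normal mucosa 7 of the 8 means (all but Tapbp) were lower in epithelium. The largest differences there were those of B2m (4.19 ± 0.04 in epithelium, 6.1 ± 0.71 in stroma) and Psmb8 (1.05 ± 0.36 and 2.38 ± 0.45, SD, n = 3 each). The mean over the 8 genes was 2.38 ± 0.29 in epithelium and 3.13 ± 0.44 in stroma there (SD, n = 3 each), 5.05 ± 1.02 and 3.57 ± 1.69 in hyperplasia, 4.86 ± 0.42 and 4.97 ± 0.82 in dysplasia (n = 4 each), and 4.29 ± 0.93 and 3.94 ± 0.60 in tumor. A difference between stages in the compartment contrast was not tested.

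The constitutive proteasome, by contrast, was higher in epithelium. For the counts below, 14.5% of all genes fitted were called higher and 9.36% lower in epithelium. Of the 11 core subunits measured (of 14 listed), 9 passed the test as higher and 0 as lower, with a median of 1.08, and all 11 differences were above 0 under each of the 12 alternatives tried, with medians between 0.47 and 1.19. Psmb5, the chymotrypsin-like subunit that Psmb8 replaces, was higher by 1.66 ± 0.44 (adjusted p = 0.00520 with limma), Psmb7 by 1.20 ± 0.38 (adjusted p = 0.0201) and Psmb6 by 1.15 ± 0.39 (adjusted p = 0.0301). The count of 9 was fragile to single libraries and settings. It was 1 without tumor epithelium 2, 2 without normal epithelium 2, hyperplasia epithelium 3 or tumor stroma 1, and 3 without hyperplasia epithelium 1. It was 4 without normal stroma 3 or dysplasia epithelium 3, 5 without normal stroma 2, dysplasia stroma 4, tumor epithelium 3 or tumor stroma 3, and 6 without hyperplasia stroma 1. It was 7 without the libraries that stand apart, 5 with a pseudocount of 0.1 and 2 after rescaling. Of the 8 loading and trimming partners 4 were higher, namely the chaperones Hspa5 (1.65 ± 0.38), Calr (1.30 ± 0.39) and Canx (0.89 ± 0.33) and the tapasin-related Tapbpl (0.90 ± 0.30). That count was 2 without normal epithelium 2, normal stroma 2, hyperplasia epithelium 1 or tumor epithelium 2. It was also 2 with the pseudocount of 0.1, after rescaling or without the libraries that stand apart. Class II presentation went the other way, with 2 of 7 genes lower, Cd74 (-1.15 ± 0.40, the invariant chain) and H2-Aa (-1.15 ± 0.40), and 0 higher. That count was 0 without normal epithelium 1, normal epithelium 3, normal stroma 1, hyperplasia epithelium 2, hyperplasia stroma 2, dysplasia epithelium 2, dysplasia stroma 1, tumor epithelium 1, tumor epithelium 3 or tumor stroma 2. It was 1 without hyperplasia stroma 3, and 4 without hyperplasia stroma 1, and between 1 and 6 under the 12 alternatives. Macrophage markers were lower in epithelium in 7 of 8 cases, and their part in the class II values was not tested.

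**Figure D3:**
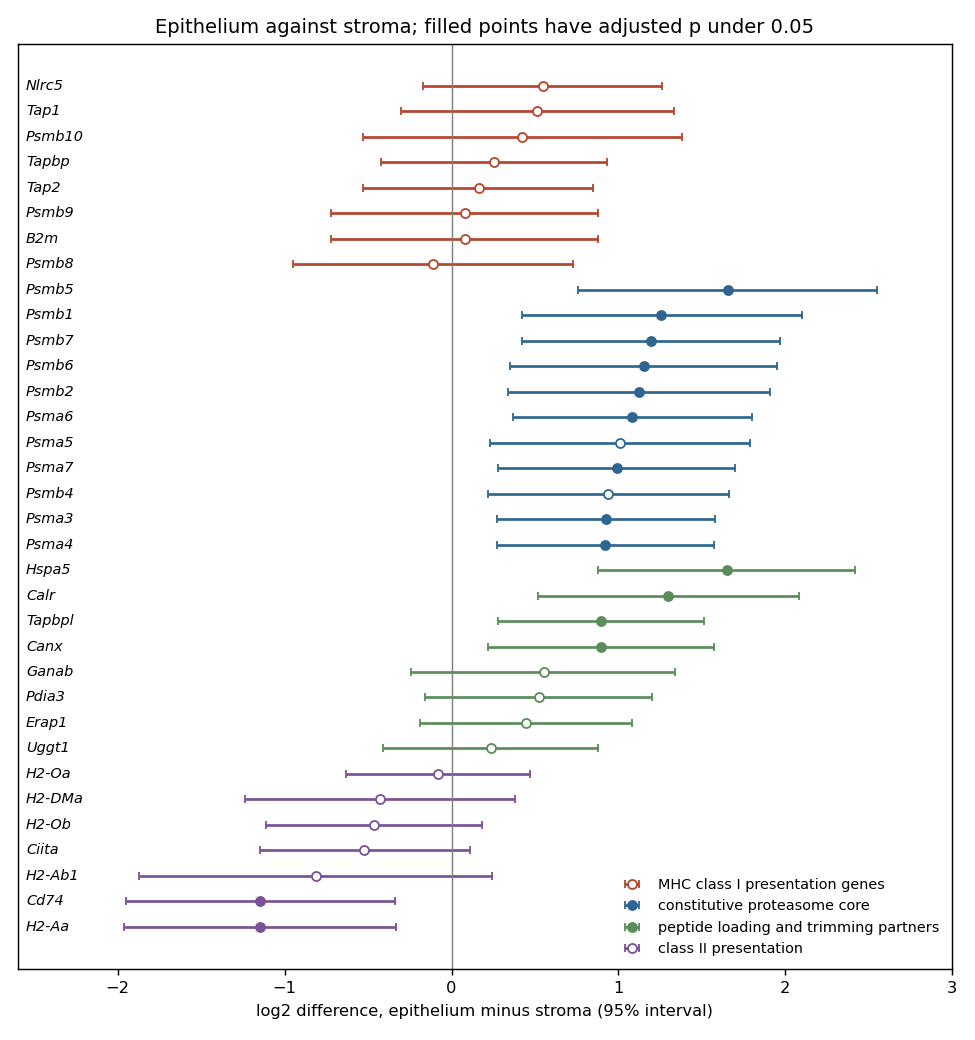
Log2 difference, epithelium minus stroma, on the horizontal axis with 95% intervals from limma, for the 8 class I presentation genes (red), the constitutive proteasome core (blue), the loading and trimming partners (green) and class II genes (purple), filled where the adjusted p was under 0.05. The red points lie between -0.11 and 0.55 with none filled, while 9 of 11 blue points are filled and lie at or above 0.92.

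The balance of each immunoproteasome subunit with its constitutive counterpart was taken within each library, as a difference of log2(TPM + 1) values, which cancels a scaling factor of the library for genes well above the pseudocount. Psmb8 minus Psmb5 was -4.01, -4.37 and -2.6 in normal epithelium, -0.43, -1.19 and -2.78 in hyperplasia, -0.52, -1.95, -1.98 and -0.38 in dysplasia, and -1.76, -1.55 and -3.31 in tumor. In stroma it was -1.42, -2.78 and -0.98 in normal mucosa, -1.57, 2.44 and -0.23 in hyperplasia, 1.96, 3.08, -0.03 and 1.24 in dysplasia, and -1.25, -1.80 and -1.5 in tumor. Psmb8 exceeded Psmb5 in 3 of 4 dysplasia stroma libraries and 1 of 3 hyperplasia stroma libraries, and in 0 of 13 epithelium libraries. In the highest of these, dysplasia stroma 2, Psmb5 was listed at 0. Psmb9 minus Psmb6 averaged -4.50 ± 1.05 in normal epithelium, -2.37 ± 0.56 in hyperplasia, -2.52 ± 0.79 in dysplasia and -3.50 ± 0.56 in tumor, and -3.87 ± 0.59, -0.72 ± 0.63, -0.95 ± 1.25 and -3.06 ± 1.52 in stroma of the same stages (SD, n = 3, 3, 4 and 3). Psmb10 minus Psmb7 averaged -2.56 ± 0.41, -1.69 ± 0.68, -1.56 ± 0.86 and -1.91 ± 0.13 in epithelium and -2.09 ± 1.44, -0.15 ± 0.35, -1.32 ± 2.57 and -1.07 ± 0.65 in stroma. In hyperplasia stroma 1 both Psmb10 and Psmb7 are listed at 0, so its difference of 0.00 measures no balance, though it enters that mean, its SD and the test over all libraries. Psmb8 and Psmb9 are listed at 0 there as well, with Psmb5 at 1.96 TPM and Psmb6 at 1.17 TPM. Its differences of -1.57 and -1.12 for those pairs thus rest on a value of 0 and enter the means and tests too. For each pair the mean was lower in epithelium than in stroma at every stage.

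Over the compartments, Psmb8 minus Psmb5 averaged -2.06 ± 1.31 in epithelium and -0.22 ± 1.84 in stroma (SD, n = 13 each), a difference within stages of -1.77 (two-sided permutation test of the compartment labels within stages, 100000 draws, p = 0.00054, adjusted over the 3 pairs 0.00162). Psmb9 minus Psmb6 averaged -3.17 ± 1.10 and -2.06 ± 1.68, a difference of -1.07 (permutation p = 0.00767, adjusted 0.0115). Psmb10 minus Psmb7 averaged -1.90 ± 0.67 and -1.17 ± 1.6, a difference of -0.77 that did not pass (permutation p = 0.0763, adjusted 0.0763). Without the 4 libraries that stand apart the adjusted permutation p-values were 0.00174, 0.0317 and 0.00877, so the third pair passed once those libraries, 2 of which list Psmb10 at 0, were left out. These tests were chosen after the values were seen, and treat libraries of a stage as exchangeable between compartments. They did not pair the epithelium and stroma libraries that match by code, age and run. Psmb8, Psmb9 and Psmb10 were chosen with differences between lesional and normal epithelium in view, and those epithelium libraries enter the tests. The p-values are therefore not independent of that choice. In the fit between compartments Psmb8 (-0.11), Psmb9 (0.08) and Psmb10 (0.42) did not pass, while Psmb5, Psmb6 and Psmb7 were higher in epithelium. A lower balance in epithelium is thus not a measure of lower immunoproteasome RNA there.

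**Figure D4:**
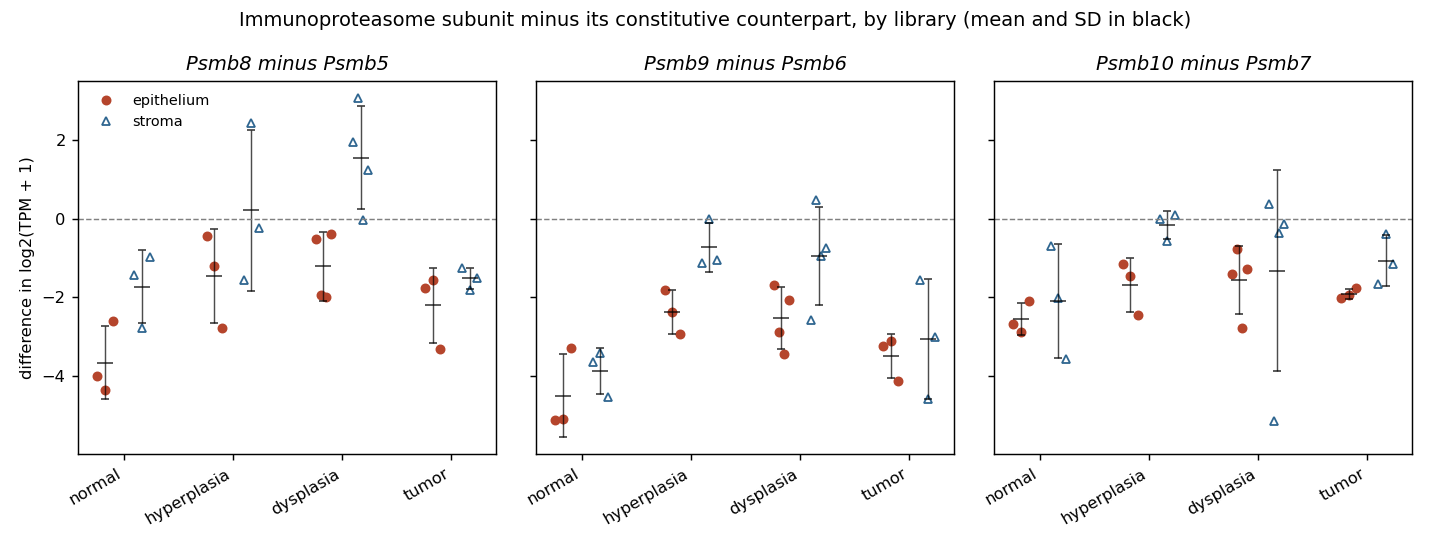
Difference in log2(TPM + 1) between each immunoproteasome subunit and its constitutive counterpart on the vertical axis, by stage on the horizontal axis, with epithelium as red circles, stroma as blue triangles, and mean and SD in black. All epithelium points lie below 0, and 3 of 4 dysplasia stroma points of Psmb8 minus Psmb5 lie above it.

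Other genes of the pathway followed the 8 genes to differing degrees, and none of those below passed the test in a stage comparison of stroma or in tumor against dysplasia epithelium. Of 16 listed class I heavy chain genes 1 could be read, Mr1, which is not a classical class I gene. Its difference from normal epithelium was -0.07 in hyperplasia, -0.56 in dysplasia and -0.59 in tumor. H2-K1 and H2-D1 were not analysed here, so these values say nothing of the classical heavy chains. The loading partners had medians of 0.84, 0.95 and 0.75 from normal epithelium in hyperplasia, dysplasia and tumor, led by Hspa5 (1.76, 1.58 and 1.64). The constitutive core had medians of 0.67, 0.59 and 0.63, with all 11 genes above 0 at each stage, and Psme1, a subunit of the proteasome activator that interferon raises, had 1.64, 1.46 and 1.09. The 7 class II genes fitted had medians of 1.64, 1.27 and 0.35, with Cd74 at 2.69, 2.12 and 1.57, H2-Aa at 2.65, 2.15 and 1.76 and H2-Ab1 at 2.57, 2.05 and 1.77. These lay above H2-DMa (1.64, 1.27 and 0.25), Ciita (1.06, 0.46 and 0.35), H2-Oa (0.59, -0.08 and 0.34) and H2-Ob (0.34, 0.48 and 0.21). Of the 11 type I interferon induced genes fitted in epithelium, 11 differed from normal above 0 in hyperplasia, 11 in dysplasia and 10 in tumor, with medians of 1.70, 0.74 and 0.30 and Bst2 (2.81, 1.65 and 0.85) and Rtp4 (2.73, 1.37 and 0.58) the furthest up in hyperplasia. Their median was highest in hyperplasia and was lower in dysplasia, where that of the 8 genes was close to its value in hyperplasia. The 5 interferon-gamma induced genes fitted had medians of 0.76, -0.10 and 0.23, with Cxcl9 at 1.17, 0.15 and 0.23. These epithelial values stand beside the contrasts that chose the 8 genes and carry no test.

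Of the regulators, Irf1, an interferon-induced activator of class I genes, averaged 2.11 ± 0.31 in normal epithelium, 3.30 ± 0.78 in hyperplasia, 3.50 ± 0.63 in dysplasia and 2.99 ± 0.77 in tumor, and 3.06 ± 0.58, 2.67 ± 2.31, 5.05 ± 0.54 and 3.58 ± 0.92 in stroma of the same stages (SD, n = 3, 3, 4 and 3). In stroma its mean was highest in dysplasia, as the mean of the 8 genes was. Rfx5, a subunit of the factor through which NLRC5 reaches class I promoters, stayed between 3.03 and 3.44 in the means of the 4 epithelium groups, and Ciita, the class II transactivator related to Nlrc5, averaged 2.34 ± 0.18, 3.47 ± 0.29, 2.84 ± 0.71 and 2.76 ± 0.28. Nlrc5 was the lower of the 2 transactivators in normal epithelium (1.46 ± 0.54) and the higher one at each lesional stage. Over the whole list of 23 regulators and signalling genes the medians from normal epithelium were 0.31, 0.54 and 0.21, with 19, 18 and 16 genes above 0. In stroma Cxcl10 was the furthest from normal among interferon-gamma induced genes in dysplasia, at 2.38, and -2.06 in tumor against dysplasia, and class II genes had medians of 2.18 and -1.32 in those comparisons, with 7 of 7 genes above and 6 of 7 below 0. Between compartments 0 of 23 regulators and 0 of 6 interferon-gamma induced genes passed, against 23.9% of all genes. Of 12 type I interferon induced genes 2 were lower in epithelium (Cmpk2, -0.89 ± 0.23, and Ifit2, -0.89 ± 0.28), against 9.36% of all genes. Of 5 activator and assembly genes 2 were higher (Psme3, 1.19 ± 0.36, and Pomp, 1.03 ± 0.38), against 14.5% of all genes. Counts of 2 in lists this short are not read as a result. The activator count was 1 without any 1 of 16 libraries, namely every library other than normal epithelium 3, normal stroma 3, hyperplasia epithelium 2, hyperplasia stroma 1 and 3, dysplasia epithelium 1 and 2, dysplasia stroma 3, tumor epithelium 1 and tumor stroma 2. The type I interferon count was 1 with the stricter filter and between 3 and 6 under 6 other alternatives, and 3 without hyperplasia epithelium 1 or hyperplasia stroma 1.

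Across the 13 epithelium libraries the 28 pairs of the 8 genes correlated between 0.64 and 0.98 with a median of 0.88, and across the 13 stroma libraries between 0.29 and 0.89 with a median of 0.70. These are Pearson correlations given as a description, and they include the differences between stages and whatever the libraries share in composition. The genes outside the set whose levels were most like the mean of the 8 genes in epithelium were Cd74 (0.96), Nfil3 (0.96), Cxcl16 (0.95), Parp12 (0.95) and H2-Ab1 (0.94). Cd74 averaged 4.78 ± 0.46 in normal epithelium, 7.32 ± 0.93 in hyperplasia, 6.82 ± 0.49 in dysplasia and 6.19 ± 0.99 in tumor (SD, n = 3, 3, 4 and 3), and Nfil3, a transcription factor, averaged 0.77 ± 0.37, 2.61 ± 0.97, 3.10 ± 0.48 and 2.40 ± 0.99. Since both were picked for their likeness, their levels are a description, and the mean of Nfil3 was highest in dysplasia. In stroma the most alike were Palm2 (0.98), H2-DMa (0.97), Il10ra (0.95), Igfbp4 (0.95) and Mctp1 (0.94). Hyperplasia stroma 1, with 9382 genes at 0 and the lowest mean of the 8 genes (1.62), enters every stroma correlation. The correlations were not computed without it, so the likeness in stroma may rest on that library. No gene was among the 5 of both compartments, which follows from the cut at 5. H2-Aa ranked 7 in epithelium and 7 in stroma (0.94 in each). In stroma H2-Ab1 ranked 12 (0.93) and Cd74 ranked 23 (0.92), while H2-DMa ranked 645 in epithelium (0.71). By mean level the order of the 8 genes in epithelium was B2m (7.62), Tapbp (5.15), Nlrc5 (4.09), Tap2 (3.67), Tap1 (3.64), Psmb10 (3.43), Psmb8 (3.15) and Psmb9 (2.84), and in stroma B2m (7.57), Tapbp (4.98), Nlrc5 (3.56), Tap2 (3.55), Psmb8 (3.29), Tap1 (3.12), Psmb10 (2.99) and Psmb9 (2.82). Below Tapbp the neighbours in that order overlapped widely from library to library.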

How the data were processed

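Per the labels' protocols and the submitters' processing notes, RNA from laser-dissected fixed tongue was sequenced in 2 runs. The notes name Salmon 0.9.1, HTSeq 0.10.0, STAR 2.5.1b and SAMtools 1.6, as well as Trimmomatic 0.36, FastQC 0.11.5 and bcl2fastq 2.20, and the build GRCm38.p6, with no role or order. The authors deposited 1 table of log2 values, log2(TPM + 1), with 18676 rows, of which the 16397 whose mouse gene ID stood in 1 row were used (626 IDs stood in several). TPM keeps no depth.

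Each compartment was fitted with limma 3.58.1 (R 4.3.3) with stage and run as terms and a trended prior. Epithelium and stroma were compared over all 26 libraries with 8 groups and run, without pairing. Genes needed 1 TPM or more in 3 or more libraries, and p-values were adjusted by Benjamini-Hochberg over all genes fitted (threshold 0.05). The fits were tested on simulated data. The members and lists were chosen with earlier results of these data known. Named genes outside the set were those of the lists and the 5 per compartment with the highest Pearson correlation with the mean of the 8 genes. Promoter windows came from RefSeq. Alternatives covered pseudocount, filter, scaling, run, age, rows, a block (between compartments, a pairing) and left-out libraries. The last choice of 4 libraries was made after seeing the data. Python 3.11.15 drew the figures.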

Additional observations from a re-analysis of the deposited data

Results flagged for a closer look

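In groups of 4 libraries, 3 of the 22 tested held a library whose gap to its nearest neighbour, divided by the range of the group, passed Dixon's critical value of 0.829. Chance flags about 1 in 20 such groups. Tap1 in dysplasia epithelium 2 was the lowest of its group at 3.00, with a gap of 0.9 of the range, in a library where Lars2, March6 and D17H6S53E held 17.9% of the TPM. Tapbp in dysplasia epithelium 3 was the highest of its group at 5.82, with a gap of 0.899 of the range. Psmb10 minus Psmb7 in dysplasia stroma 2 was the lowest at -5.14, with a gap of 0.866 of the range, and Psmb10 is listed at 0 there.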

How the results depend on the processing

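The number of the 8 genes that passed was 0 in every tested comparison under 12 alternatives and with each library left out (lowest and highest 0), with 1 exception. Comparing epithelium with stroma after rescaling without Lars2, March6 and D17H6S53E and without the libraries that stand apart, 1 of the 8 genes passed, Psmb8 (-1.07, adjusted p = 0.00499 with limma, against 0.877 as reported). That setting was chosen after seeing the data. Counts over all genes moved more: 0 to 108 for hyperplasia against normal stroma, 0 to 41 for dysplasia, 0 to 16 for tumor, 0 to 25 for tumor against dysplasia stroma, 0 to 8 for tumor against dysplasia epithelium and 2755 to 5769 between compartments; with 1 library left out they were 0 to 94, 0 to 18, 2 to 17, 1 to 32, 0 to 13 and 2873 to 4537. The cause was not tested. The medians from normal epithelium stayed above 0 throughout, at 2.27 to 3.28 in hyperplasia, 2.2 to 3.11 in dysplasia and 1.22 to 2.41 in tumor.

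With a block of title replicate numbers, 0 of the 8 genes passed in every tested stage comparison. The count over all genes for hyperplasia against normal stroma was 9 against 1 without the block. Between compartments this alternative was instead a fit of differences between libraries matched by stage, code, age and run, with no run term. There 0 of the 8 genes passed, and the count over all genes was 4577 against 3706 without pairing. Deviations of libraries with the same title number correlated between -0.68 and 0.51 in epithelium (6 of 18 pairs over 0.1) and between -0.39 and 0.28 in stroma (2 of 18), and those matched by code, age and run across compartments between -0.07 and 0.54 (8 of 13), so the numbers were not taken to pair the libraries. Depth is unknown, groups hold 3 or 4 libraries, and 4 libraries stand apart.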
